A study of Mus musculus with 6 samples.

Results

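The 10 genes described here, Cd3d, Cd3e, Cd3g, Cd4, Cd8a, Cd8b1, Nkg7, Cd79a, Cd79b and Ms4a1, are markers of T, natural killer (NK) and B lymphocytes. They were chosen by name, and all 10 were found by Ensembl identifier among the 56305 genes of the RNA-Seq table. The table covers 3 WT livers and 3 Vps15LKO livers, 1 library per liver, from male mice of 5 weeks fed standard chow ad libitum and sampled at ZT6, 6 h after lights on. Vps15LKO mice are AlbCre+;Vps15 f/f: Cre, driven by the albumin promoter of hepatocytes, removes Vps15, the regulatory subunit of class 3 PI3K, chronically from the liver. The labels give the control genotype only as WT, and do not say whether those mice carried AlbCre or a floxed allele. Recombination was thus directed to hepatocytes, whereas the 10 markers belong to blood-derived cells present in the tissue.

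T cells recognise antigen through a receptor that signals through the CD3 chains encoded by Cd3d, Cd3e and Cd3g. Cd4 encodes the coreceptor of helper and regulatory T cells, and Cd8a and Cd8b1 the chains of the coreceptor of cytotoxic T cells. In mice some dendritic cells also carry CD4 or CD8 alpha, whereas the CD8 beta chain is largely restricted to T cells. Nkg7 encodes a protein of the cytotoxic granules of NK cells and cytotoxic T cells. Cd79a and Cd79b encode the signalling chains of the B cell receptor, and Ms4a1 encodes CD20, a surface protein of mature B cells that is lost in plasma cells. The liver is known for resident NK cells and innate-like and CD8 T cells, with fewer B cells.

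The 3 CD3 genes lie next to each other on mouse chromosome 9 (GRCm38): Cd3g at 44969572 to 44980431 on the minus strand, Cd3d at 44981786 to 44987339 on the plus strand and Cd3e at 44998740 to 45009627 on the minus strand. The starts of Cd3g and Cd3d point away from each other over 1355 bp. The CD8 genes are also neighbours, with 35933 bp between the end of Cd8b1 (chromosome 6, 71322788 to 71337494) and the start of Cd8a (71373427 to 71379173). The RefSeq promoter table of GRCm38.p6 holds 6 of the 10 markers. The upstream sequences of Cd3d and Cd3g are shown because these genes are divergent neighbours, and those of Cd8a and Cd79a because these markers had the highest and the lowest fold change of the 10. Each runs 5′ to 3′ and ends at the base before the annotated start, and capitals mark GGAA, the core letters of ETS factor sites, on either strand (TTCC):
Cd3d (chr9:44981536-44981785, plus strand): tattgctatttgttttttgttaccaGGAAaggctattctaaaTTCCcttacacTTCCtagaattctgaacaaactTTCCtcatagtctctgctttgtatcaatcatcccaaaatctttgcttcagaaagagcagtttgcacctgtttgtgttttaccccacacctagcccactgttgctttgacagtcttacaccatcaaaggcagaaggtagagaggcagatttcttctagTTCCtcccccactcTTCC
Cd3g (chr9:44980432-44980681, minus strand): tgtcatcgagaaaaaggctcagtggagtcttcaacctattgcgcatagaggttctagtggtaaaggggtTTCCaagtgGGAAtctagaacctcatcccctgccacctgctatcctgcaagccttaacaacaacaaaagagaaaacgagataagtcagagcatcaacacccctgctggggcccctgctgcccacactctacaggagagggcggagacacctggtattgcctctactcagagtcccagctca
Cd8a (chr6:71373177-71373426, plus strand): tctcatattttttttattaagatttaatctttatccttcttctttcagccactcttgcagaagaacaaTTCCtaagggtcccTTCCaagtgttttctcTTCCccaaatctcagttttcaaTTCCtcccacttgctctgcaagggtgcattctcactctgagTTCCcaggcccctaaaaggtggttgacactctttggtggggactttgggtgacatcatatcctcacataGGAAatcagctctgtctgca
Cd79a (chr7:24897247-24897380, plus strand): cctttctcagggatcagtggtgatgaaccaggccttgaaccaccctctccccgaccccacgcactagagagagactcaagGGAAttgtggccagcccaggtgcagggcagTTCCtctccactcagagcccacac
GGAA was found in the 250 bases upstream of all 6 markers, but also in 93.4% of the 32851 promoters of the table, with a median of 3 matches. The E-box CACGTG, the letters bound by Bmal1–Clock, was in none of the 6 and in 6.02% of all promoters. GATAA was in those of Cd8a and Cd3g (22.6% of all promoters) and TGTGGT, the core letters of RUNX sites, in that of Nkg7 (14.0%), with both strands searched. The letters CCCNNGGG of EBF sites were in none of the 6 and in 11.8% of all promoters. No motif searched contains another. These matches describe letters only.

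The libraries held between 16137093 and 18110223 reads on genes. The deposited values are normalized counts, reads divided by a size factor of each library, and 1 read was worth 1.25 to 1.35 normalized counts in WT livers but 0.707 to 0.81 in Vps15LKO livers. Alb, the main hepatocyte transcript, took 9.34 to 9.96% of reads in WT livers and 4.86 to 6.61% in Vps15LKO livers. Pik3r4, the gene of Vps15, read 508, 573 and 460 normalized counts in WT livers and 341, 362 and 355 in Vps15LKO livers, a log2 fold change of -0.54 ± 0.11 (SE; limma, adjusted p = 0.0027) that became 0.19 under scaling to total reads. A gene-level value cannot separate the deleted exons from the rest of Pik3r4.

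Lymphocyte transcripts were of low abundance in all livers, and 8 of the 10 markers were higher in Vps15LKO than in WT livers. The largest increases were in the CD8 coreceptor genes, followed by Nkg7, and the rises in the CD3 genes, Cd4 and Cd79b were smaller. The B cell markers Cd79a and Ms4a1 did not pass the test. The test was limma on log2(normalized count + 1) with Benjamini–Hochberg adjustment over all 29328 genes with a read in any liver, and genes past an adjusted p of 0.05 that also differed by 1.2-fold or more were called. In that fit 8 markers were called higher and 0 lower, whereas 23.4% of all genes were called higher and 18.0% lower. No Vps15LKO liver overlapped a WT liver for these 8 markers, which held for 27.5% of all genes in that direction and for 21.8% in the other. The median log2 fold change was 1.75 over the 10 markers and 0.20 over all genes. edgeR on the recovered reads of the same genes also called 8 higher and 0 lower. In bulk tissue, more cells of a type and more RNA per cell cannot be told apart.

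**Figure D1:**
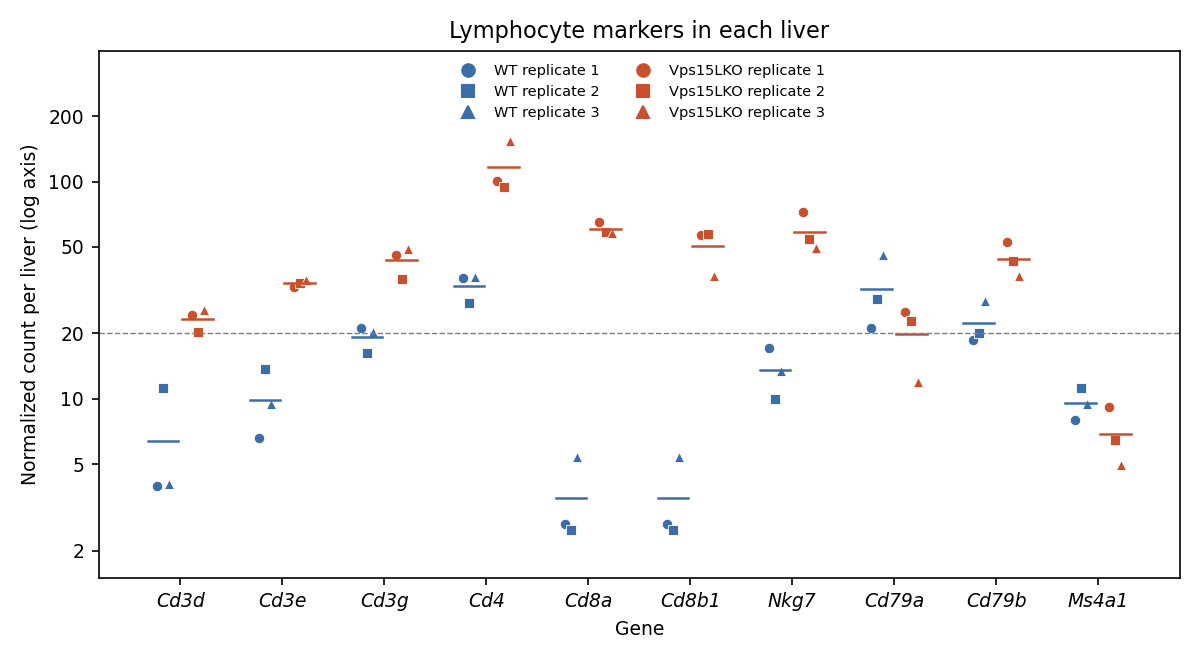
Normalized counts (log axis) of the 10 markers in each of 3 WT (blue) and 3 Vps15LKO (orange) livers, with symbols for replicates, short lines for group means and a dashed line at 20 normalized counts. For 8 markers every Vps15LKO liver sits above every WT liver, whereas the groups overlap for Cd79a and Ms4a1.

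With the filter of at least 20 normalized counts in at least 3 livers, 15430 genes were tested, of which 33.5% were called higher and 33.0% lower. Of the markers 9 passed this filter, and for 7 of them the WT livers alone would not have been enough: Cd3d, Cd3e, Cd8a, Cd8b1 and Nkg7 had 0 WT livers at that level, Cd79b had 1 and Cd3g had 2. Ms4a1 did not pass. Counts of markers are therefore read from the fit without the filter, whose log2 fold changes for the 9 are the same.

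Among the CD3 genes, Cd3g was the most abundant in normalized counts. It read 21.2, 16.2 and 20.2 in WT livers and 45.8, 35.7 and 48.8 in Vps15LKO livers, a mean of 19.2 ± 2.63 against 43.4 ± 6.89 (SD, n = 3). The log2 fold change of Cd3g was 1.13 ± 0.26 (SE; limma, adjusted p = 0.0056), the lowest of the 3 chains. Cd3e read 6.63, 13.7 and 9.44 in WT livers and 32.8, 34 and 35.4 in Vps15LKO livers. The Vps15LKO livers were close together, with an SD of 1.26 around a mean of 34.1, and the log2 fold change was 1.73 ± 0.34 (adjusted p = 0.002 in limma). Cd3e overlaps the antisense gene Gm48719 over 3557 bp, which itself had mean levels of 6.02 (WT) and 14.1 (Vps15LKO), and whether counting used strand is not known. Cd3d read 3.98, 11.2 and 4.04 in WT livers, where replicate 2 was the highest, and 24.4, 20.3 and 25.5 in Vps15LKO livers. These WT values rest on 3, 9 and 3 reads, and the log2 fold change was 1.85 ± 0.44 (adjusted p = 0.0064 in limma). The ratio of pooled Cd3d reads was 3.6, with a 95% interval for counting error alone of 2.07 to 6.69. In fits without a filter that each left out 1 liver, Cd3d was still called when any 1 WT liver was left out but was not called without Vps15LKO replicate 1 (1.81), 2 (1.94) or 3 (1.78), with adjusted p-values of 0.05 to 0.075 in limma.

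Cd4, on the minus strand of chromosome 6 (124864692 to 124888221), was higher in Vps15LKO livers by a fold of means of 3.51, close to those of Cd3d (3.64) and Cd3e (3.43) and above that of Cd3g (2.26). It read 35.8, 27.5 and 36.4 in WT livers and 101, 94.8 and 154 in Vps15LKO livers. Vps15LKO replicate 3 stood highest, as it did for Cd3d, Cd3e and Cd3g. The log2 fold change was 1.76 ± 0.23 (SE; limma, adjusted p = 0.00018).

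The CD8 genes had few reads in WT livers. Cd8a read 2.65, 2.5 and 5.39 in WT livers, from 2, 2 and 4 reads, and 64.9, 58.3 and 58 in Vps15LKO livers, from 85, 72 and 82 reads. Cd8b1 had the same read numbers as Cd8a in each WT liver, 2, 2 and 4, and read 56.5, 57.5 and 36.8 normalized counts in Vps15LKO livers. Both coreceptor chains thus had a higher fold over WT than the other 8 markers. The log2 fold change of Cd8a was 3.82 ± 0.36 (SE; limma, adjusted p = 1.8e-05) and that of Cd8b1 3.53 ± 0.39 (adjusted p = 5.1e-05). Since the WT values rest on 8 reads for each gene, the ratio of pooled reads was 17.3 for Cd8a with a counting interval of 8.66 to 40.6, and 14.3 for Cd8b1 with an interval of 7.11 to 33.6.

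Nkg7, the granule gene shared by NK and cytotoxic T cells (chromosome 7, 43437073 to 43438249), read 17.2, 9.99 and 13.5 in WT livers and 72.5, 54.3 and 49.5 in Vps15LKO livers. The log2 fold change was 2.05 ± 0.29 (SE; limma, adjusted p = 0.0003). Its lowest Vps15LKO liver was above its highest WT liver by more than the range within either genotype.

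The 3 B cell markers did not move together. Cd79b (chromosome 11, 106311341 to 106314762) read 18.6, 20 and 28.3 in WT livers and 52.7, 42.9 and 36.8 in Vps15LKO livers, with a log2 fold change of 0.96 ± 0.27 (SE; limma, adjusted p = 0.017). Without a filter Cd79b was not called when WT replicate 1 (0.85) or 2 (0.90) or Vps15LKO replicate 1 (0.83) or 2 (0.97) was left out, with adjusted p-values of 0.06 to 0.083 in limma. Its partner Cd79a (chromosome 7, 24897381 to 24902197) read 21.2, 28.7 and 45.8 in WT livers and 25.2, 22.7 and 12 in Vps15LKO livers. WT replicate 3 was the highest and Vps15LKO replicate 3 the lowest, and the groups overlapped. The log2 fold change of Cd79a was -0.65 ± 0.38 (adjusted p = 0.22 in limma), and it was -0.33 without Vps15LKO replicate 3, -0.36 without WT replicate 3 and 0.05 under total-read scaling. Ms4a1 (chromosome 19, 11249675 to 11266241) read 7.96, 11.2 and 9.44 in WT livers and 9.16, 6.48 and 4.95 in Vps15LKO livers, from 6 to 12 reads per liver. Its log2 fold change was -0.45 ± 0.41 (adjusted p = 0.44 in limma) and 0.20 under total-read scaling, but -1.13 under quantile normalization, past the threshold (limma, adjusted p = 0.047), and the counting interval of its read ratio, 0.391 to 1.31, spans no change.

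Per kilobase of exon, the level of the markers took a different order in each genotype. In WT livers Cd79a was the highest at 21.9 ± 8.66 normalized counts per kb (SD, n = 3), then Cd79b at 15.6 ± 3.68 and Nkg7 at 14.8 ± 3.96, and the livers of neighbours in this order overlapped. Cd4 followed at 8.24 ± 1.24, separate from Nkg7 above it and from Cd3g below it at 5.88 ± 0.806. From Cd3g down through Cd3d, Cd3e, Cd8b1, Ms4a1 and Cd8a, which was the lowest at 0.966 ± 0.448, each neighbour overlapped the next. In Vps15LKO livers Nkg7 was the highest at 64.3 ± 13.3 normalized counts per kb, above all others without overlap. Cd8b1 (33.9 ± 7.89), Cd79b (30.8 ± 5.61) and Cd4 (28.9 ± 8.11) came next with overlapping livers, then, below Cd4 without overlap, Cd8a (16.6 ± 1.07), Cd79a (13.7 ± 4.8), Cd3g (13.3 ± 2.11) and Cd3d (12.9 ± 1.52), also with overlapping neighbours. Cd3e at 8.35 ± 0.31 and Ms4a1 at 1.11 ± 0.345 were each separate from the gene above. These levels count all annotated exons of a gene, so a gene with a long exon union reads lower.

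The scaling of the libraries bears on all of these changes. Scaling to total reads in place of the deposited size factors raised the median log2 fold change of the 15430 filtered genes by 0.72 and turned 5163 genes called higher and 5099 lower into 10300 and 1712. Without a filter total-read scaling called 8 markers higher and 0 lower, beside 44.0% and 6.23% of all genes, and with the filter their log2 fold changes were 1.66 for Cd79b to 4.45 for Cd8a. TMM and upper-quartile scaling (median shifts of 0.04 and -0.10) also gave 8 and 0 without a filter, beside 24.2% and 21.5% of all genes called higher. Quantile normalization without a filter called 5 higher (Cd3e, Cd4, Cd8a, Cd8b1 and Nkg7) and 2 lower, Cd79a at -1.33 (limma, adjusted p = 0.03) and Ms4a1, beside 19.3% and 21.3% of all genes. Cd3d (1.18), Cd3g (0.45) and Cd79b (0.28) were not called there. In the filtered fit it called 4 higher, without Cd3e (0.64), and 1 lower, Cd79a at -1.74.

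**Figure D2:**
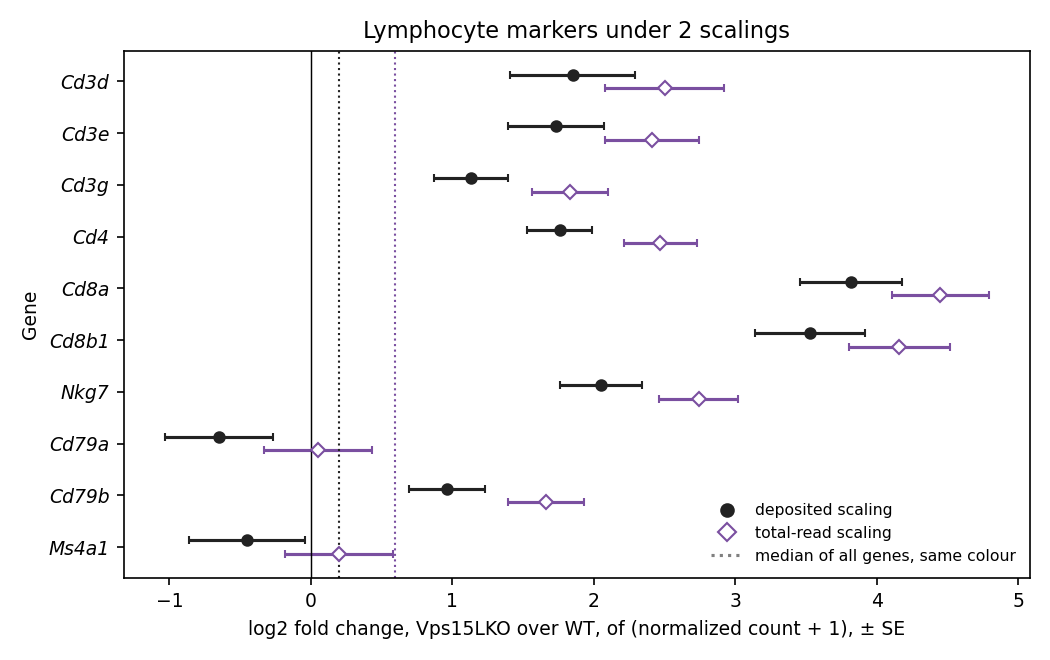
log2 fold change (Vps15LKO over WT, of normalized count + 1) ± SE of the 10 markers under the deposited scaling (black circles) and total-read scaling (purple diamonds), with dotted lines at the median of all 29328 genes under each. Cd79a and Ms4a1 lie below 0 under the first and at 0.05 and 0.20 under the second, while the other 8 are above both medians.

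Ratios of reads within a liver do not depend on the scaling. Ptprc encodes CD45, the surface phosphatase of all nucleated blood cells, and read 110, 195 and 210 normalized counts in WT livers and 792, 826 and 683 in Vps15LKO livers. Against this reference the marker classes separated. Per 100 Ptprc reads, Cd8a and Cd8b1 together had 4.82, 2.56 and 5.13 reads in WT livers and 15.3, 14 and 13.9 in Vps15LKO livers, higher without overlap, which held for 5.96% of all genes. Cd3d, Cd3e and Cd3g together had 28.9, 21.2 and 16 in WT livers and 13, 10.9 and 16.1 in Vps15LKO livers, which overlapped. The ratios of Cd4 (14.1 to 32.5 and 11.5 to 22.6) and Nkg7 (5.13 to 15.7 and 6.58 to 9.16) to Ptprc overlapped as well. All 3 B cell markers had fewer reads per Ptprc read in every Vps15LKO liver. For Cd79a the numbers per 100 Ptprc reads were 19.3, 14.7 and 21.8 in WT livers and 3.18, 2.75 and 1.76 in Vps15LKO livers. Cd79b went from 10.3 to 16.9 down to 5.2 to 6.65, and Ms4a1 from 4.49 to 7.23 down to 0.725 to 1.16. As Ptprc itself was called higher, 54.3% of all genes were lower per Ptprc read without overlap, so this direction was the common one.

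Ratios among lymphocyte markers separated the genotypes for some genes and not for others. Per 100 reads of the CD3 genes, the CD8 genes had 16.7, 12.1 and 32 reads in WT livers and 118, 129 and 86.5 in Vps15LKO livers, without overlap (as were 9.81% of all genes in this direction). Cd4 had 112, 66.7 and 108 per 100 in WT livers and 97.8, 105 and 141 in Vps15LKO livers, and did not separate. The 3 B cell markers together had 150, 145 and 248 reads per 100 CD3 reads in WT livers and 84.4, 80.2 and 49 in Vps15LKO livers, lower without overlap, as were 49.6% of all genes. Cd79b alone, at 58.3, 48.5 and 84 in WT and 51.1, 47.7 and 33.5 in Vps15LKO livers, overlapped. Within the B cell receptor pair, Cd79a had 114, 144 and 162 reads per 100 Cd79b reads in WT livers and 47.8, 52.8 and 32.7 in Vps15LKO livers. This pair was compared after its values were seen, and the share of all genes that separate per Cd79b read was not computed. With 3 livers against 3, an exact permutation test cannot go below p = 0.1, and no p is given for these ratios.

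**Figure D3:**
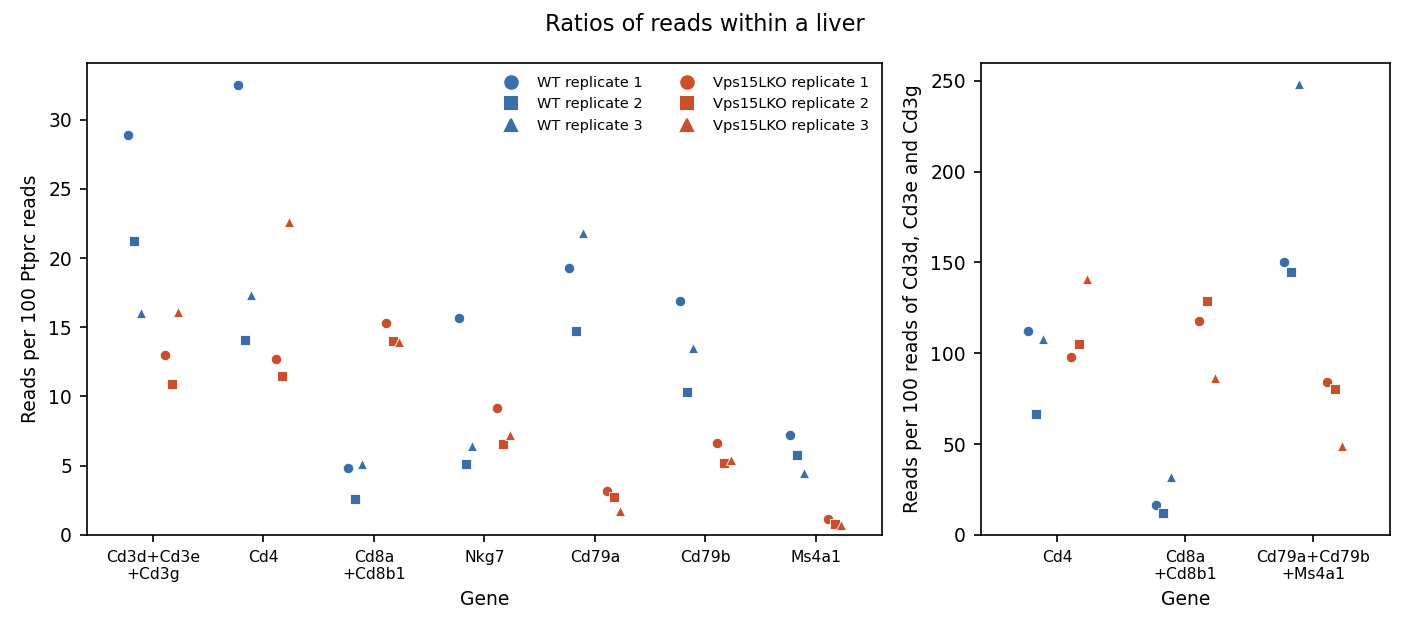
Reads of the markers per 100 Ptprc reads (left axis panel) and per 100 reads of Cd3d, Cd3e and Cd3g (right axis panel) in each of 3 WT (blue) and 3 Vps15LKO (orange) livers. The CD8 genes are higher in every Vps15LKO liver in both panels, at 86.5 to 129 per 100 CD3 reads against 12.1 to 32. This held for 5.96% of all genes per Ptprc read and 9.81% per CD3 read. Per CD3 read the 3 B cell genes summed are lower, as were 49.6% of all genes.

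The wider T cell lists were mostly higher, with exceptions. Of 21 genes of the T cell receptor and its signalling, 16 were called higher and 1 lower without a filter, with a median log2 fold change of 1.51, beside 23.4% and 18.0% of all genes. Trac, the constant region of the receptor alpha chain, went from a mean of 23.4 ± 6.68 to 111 ± 22.7 normalized counts (SD, n = 3), a log2 fold change of 2.22 (limma, adjusted p = 9.3e-05). Tcf7, a transcription factor of T cell development, rose by 0.81 (adjusted p = 0.0015 in limma). Zap70, the kinase that binds phosphorylated CD3 chains, was the gene called lower: it read 203, 136 and 125 in WT livers and 42, 69.7 and 52.3 in Vps15LKO livers, opposite to the CD3 genes it acts with. Of the 16 genes of T cell subsets and activation, 9 were called higher and 1 lower, against the same shares of all genes. Havcr2, which encodes the inhibitory receptor TIM-3 of T cells and also of macrophages and dendritic cells, rose from 5.65 ± 0.52 to 88.7 ± 13.8 normalized counts. Foxp3, the regulator of regulatory T cells, had a log2 fold change of 0.07 that was 0.79 under total-read scaling (called) and -0.41 under quantile normalization. It overlaps Ccdc22, itself at means of 276 and 242 normalized counts. Tox had -0.22 and was not called, but it was called lower under quantile normalization (-0.63) and, with the filter alone, higher under total-read scaling (0.50).

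The largest change among the T cell genes was in Trdc, the constant region of the delta chain of the gamma-delta T cell receptor. Trdc had 0, 2 and 2 reads in WT livers and 269, 272 and 420 in Vps15LKO livers, a ratio of pooled reads of 139 with a counting interval of 54.3 to 513. Per 100 Trac reads, Trdc had 0, 8.7 and 10.5 reads in WT livers and 184, 250 and 222 in Vps15LKO livers. The antisense gene Gm43434 overlaps Trdc over 3437 bp and had means of 1.32 and 98.6 normalized counts, so reads of these genes may be shared if strand was not used. Reads on delta chain segments outside the constant region were also found in Vps15LKO livers alone. The delta variable segments had 0 reads in every WT liver and 12, 9 and 25 in Vps15LKO livers. Of these, 5, 4 and 9 were on Trdv5, which overlaps Trdc on the other strand over 207 bp. The delta joining segments had 0 in every WT liver and 20, 24 and 34 in Vps15LKO livers. The constant regions of the gamma chain, its partner, were less separate, with 12, 8 and 18 reads in WT and 67, 37 and 50 in Vps15LKO livers.

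Variable segments of the alpha and beta chains had few reads in any liver. Alpha variable segments had 2, 3 and 5 reads in WT and 13, 23 and 17 in Vps15LKO livers, spread over 10 to 12 of 108 segments in Vps15LKO livers. Beta variable segments had 4, 6 and 11 reads in WT and 26, 27 and 37 in Vps15LKO livers, over 11 to 15 of 22 segments. Each of these sums was higher in every Vps15LKO liver, also as normalized counts, where 27.5% of all single genes separated in this direction. No alpha or beta repertoire can be described at this depth.

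Of 21 NK and cytotoxic genes, 14 were called higher and 0 lower without a filter in limma, where all genes had 23.4% and 18.0%, and the other 7 did not pass. edgeR also called 14 higher and 0 lower. Ccl5, a chemokine of cytotoxic T and NK cells, went from 25.7 ± 1.75 to 567 ± 108 normalized counts (SD, n = 3), a log2 fold change of 4.39 (limma, adjusted p = 1e-07). Itga2, the integrin chain CD49b of NK cells and platelets, rose by 5.17 on the log2 scale (adjusted p = 4.3e-06 in limma), where the WT livers had 2, 4 and 1 reads. Il2rb, the shared beta chain of the IL-2 and IL-15 receptors, rose by 1.22 and Klrk1, the activating receptor NKG2D, by 1.24. Ncr1, the receptor NKp46 that defines NK cells, was named after its values were seen: it had 3 reads over the WT livers and 41 over the Vps15LKO livers, a ratio of 7.93 with a counting interval of 2.53 to 40. Klrb1c, the surface receptor NK1.1 of NK cells, was named in the same way: its mean was 17.7 ± 5.23 normalized counts (WT) and 21.2 ± 0.944 (Vps15LKO), the livers overlapped, and its log2 fold change of 0.29 was not called (limma, adjusted p = 0.53), but it was called higher under total-read scaling (0.98) and, with the filter, lower under quantile normalization (-1.03; without it -0.43 and not called). It overlaps Gm44511.

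The wider B cell list was also mixed. Of 22 B cell genes, 12 were called higher and 0 lower in limma without a filter (edgeR gave 12 and 0), beside 23.4% and 18.0% of all genes, and 10 did not pass. The median log2 fold change was 0.93. Cd22, an inhibitory coreceptor of B cells, had 45.6 ± 10.8 and 222 ± 11.2 normalized counts, a log2 fold change of 2.29 (limma, adjusted p = 9.6e-06). Cd72, another B cell coreceptor, rose by 0.56, and it overlaps Tesk1, a gene with means of 807 and 942. The antibody genes Ighm and Igkc rose by 0.98 and 1.70. Without a filter Igkc was not called when any 1 WT liver or Vps15LKO replicate 1 was left out. Of the same fits that left out 1 liver, only that without WT replicate 2 called Ighm. With all livers and no filter, limma without a trend did not call Ighm (adjusted p = 0.052). Other genes of the list, outside the rule for named genes and picked with their values known, went both ways. Cr2 (2.91), Fcrla (1.03), Spib (0.99) and Bank1 (0.88) were called higher. Cr2 was called whichever liver was left out, Fcrla not without Vps15LKO replicate 1 or 3, Spib not without Vps15LKO replicate 1 or 2, and Bank1 only without Vps15LKO replicate 3. In contrast, Pax5, the B lineage regulator, at -0.58, Ighd at -0.54, Fcer2a at -0.55 and Fcmr at -0.73 on the log2 scale did not pass. Under total-read scaling Pax5, Ighd and Fcer2a were above 0, at 0.10 to 0.16 and not called. Under quantile normalization Pax5 (-1.28) and Ighd (-1.43) were called lower, and limma without a trend also called Pax5 lower (-0.58, adjusted p = 0.024). The calls of the B cell and plasma cell lists depended on single livers: together 19 of 34 were called higher without a filter, but 7 without Vps15LKO replicate 1 and 11 without replicate 2 or 3, while the share of all genes went from 23.4% to 18.7% without replicate 1 and 18.8% without replicate 3.

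Of 12 plasma cell genes, 7 were called higher and 0 lower in limma without a filter, beside 23.4% and 18.0% of all genes. In contrast, edgeR and DESeq2 called 1 lower, Derl3. It read 19.9, 12.5 and 108 normalized counts in WT livers, where replicate 3 was the highest, and 8.4, 8.91 and 8.49 in Vps15LKO livers. Igha, the heavy chain of IgA, read 103, 101 and 43.1 normalized counts in WT livers and 378, 422 and 1416.7 in Vps15LKO livers. Jchain, which joins IgA and IgM into polymers, read 31.8, 22.5 and 8.09 in WT livers and 64.1, 60.8 and 174 in Vps15LKO livers. Vps15LKO replicate 3 was the highest for both, and it was the liver with the lowest Cd79a and Ms4a1. Ighg2b was also highest there, at 40.5, 34.8 and 99.7 in Vps15LKO livers. Prdm1, the regulator of plasma cell fate that is also found in other cell types, read 97, 70.5 and 85.6 in Vps15LKO livers, where replicate 3 did not stand out. Without replicate 3 the log2 fold change of Igha went from 2.97 to 2.36, that of Jchain from 2.22 to 1.73, and that of Ighg2b was below the 1.96 of all livers. In fits without a filter Igha was called whichever liver was left out, Jchain only without WT replicate 1 and Ighg2b only without WT replicate 2. Quantile normalization without a filter called neither Jchain (1.66) nor Ighg2b (1.31). Prdm1 lost its call without Vps15LKO replicate 1 or 3. Its log2 fold change was 3.76 with all livers and 3.74 without Vps15LKO replicate 3, but 4.63 without WT replicate 2 and 3.05 without WT replicate 3.

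Heavy and kappa chain reads were spread over many variable genes, and lambda chain reads were not. Heavy chain variable segments had 27, 49 and 24 reads in WT livers and 188, 169 and 565 in Vps15LKO livers, from 18 to 31 of 115 segments in WT and 44 to 67 in Vps15LKO livers. Ighv1-22 was the leading heavy chain segment in every Vps15LKO liver, with 16.0, 26.0 and 13.3% of their heavy variable reads. Kappa variable segments had 41, 75 and 45 reads against 170, 151 and 405, and lambda variable segments 4, 12 and 10 against 68, 77 and 269. The leading kappa segment took 7.41 to 9.93% of kappa variable reads in Vps15LKO livers, whereas Iglv1, 1 of 3 lambda segments, took 91.2, 93.5 and 88.5% of lambda reads. All 3 chains were highest in Vps15LKO replicate 3. Segments are short and alike, and how the authors assigned reads that match several of them is not stated, so the number of segments with a read is uncertain.

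**Figure D4:**
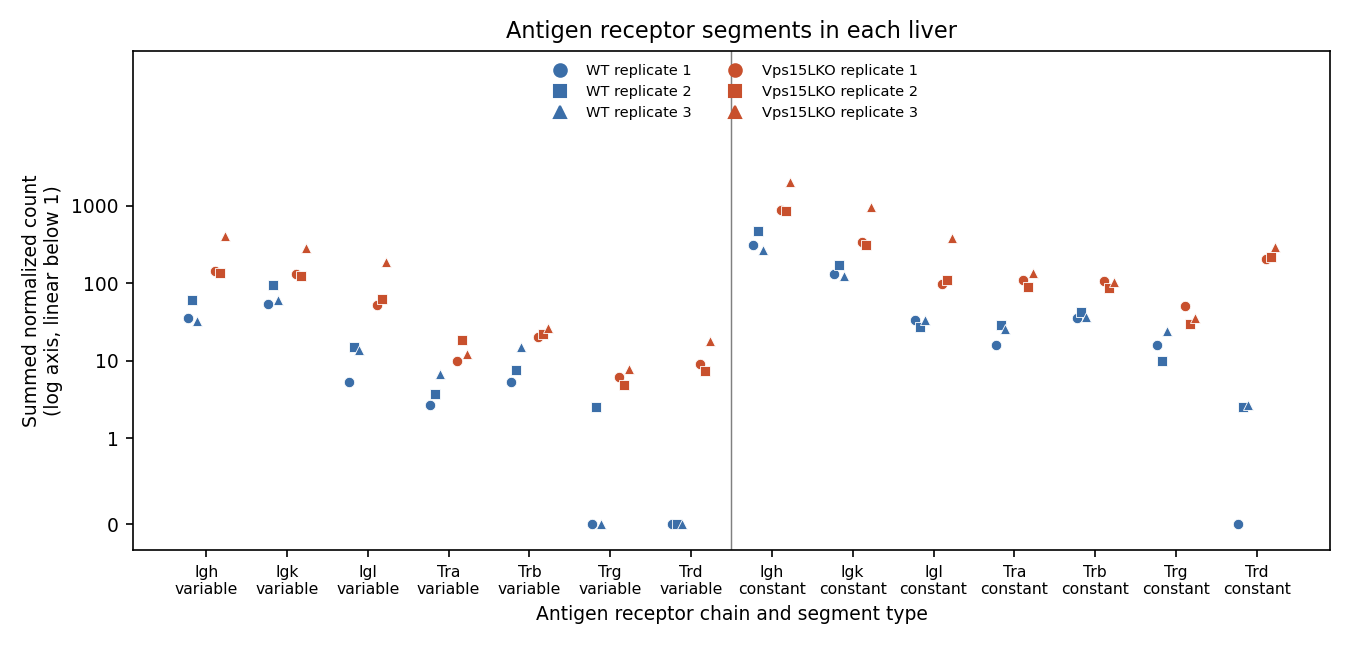
Summed normalized counts (log axis, linear below 1) of variable segments (left of the line) and constant regions (right) of each antigen receptor chain in 3 WT (blue) and 3 Vps15LKO (orange) livers. Every chain is higher in every Vps15LKO liver, a direction that 27.5% of all single genes also showed without overlap. Delta chain variable segments are at 0 in all WT livers, and the immunoglobulin chains are highest in Vps15LKO replicate 3.

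Genes of lymphocyte progenitors mostly did not pass. Of 9 measured, 2 were called higher and 0 lower in both limma and edgeR without a filter, against 23.4% and 18.0% of all genes in limma. They were Cd34, a surface protein of blood progenitors and also of endothelium, from 54.7 ± 14.2 to 515 ± 138 normalized counts (SD, n = 3), and Rag1, a recombinase subunit with 0 reads in WT livers and 13 in all Vps15LKO livers. Rag1 falls outside the rule for named genes, DESeq2 did not call it (adjusted p = 0.065), and it overlaps B230118H07Rik. Rag2, its partner, had no read in any liver. Vpreb1, a surrogate light chain of B cell precursors, had -0.67 (adjusted p = 0.23 in limma), Dntt -0.31 and Erg -0.13. Under total-read scaling Dntt was at 0.35 and Erg was called higher at 0.59, while quantile normalization called Vpreb1 (-1.32) and Erg (-0.52) lower.

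Markers of several other cell types were also mostly called higher, while others were not, and their part in the results above was not tested. Their counts stand beside 23.4% of all genes called higher and 18.0% lower without a filter. All 8 genes shared by all leukocytes were called higher, with a median log2 fold change of 2.19 and summed normalized counts between 1715.8 and 2094.8 in WT livers and between 8867.8 and 9512.8 in Vps15LKO livers. The median of the 10 lymphocyte markers, 1.75, was below that of this list. All 11 genes of monocytes and recruited macrophages were called higher (median 3.15, summed levels of 2941 to 3892.2 and 20943 to 24450), the defining Ly6c2 and Ccr2 among them, with Lyz2 and Csf1r the most abundant named. All 11 dendritic cell genes were called higher (median 1.94, 1551.4 to 2032.8 and 2836.2 to 3183.8), including the defining Flt3, Clec9a, Siglech and Xcr1. Under quantile normalization Clec9a (0.40) and Xcr1 (-0.40, or 0.12 without a filter) were not called, and without a filter Xcr1 was not called by DESeq2 (0.91), under upper-quartile scaling (0.78) or without any 1 Vps15LKO liver (0.81 to 0.92). Bst2, the most abundant of the list, was not called with the filter under upper-quartile scaling (0.32), without WT replicate 2 (0.28) or without Vps15LKO replicate 2 (0.34). Of 12 neutrophil genes 11 were called higher (median 3.21, 78.7 to 89 and 619 to 802), and of the defining genes Ly6g (3, 5 and 7 reads in Vps15LKO livers and none in WT livers) and Retnlg were called, whereas Cxcr2 was not (limma, adjusted p = 0.11), but it was under total-read scaling (1.54), with a pseudocount of 10 (0.33) and without a trend in limma. Of 10 Kupffer cell genes 7 were called higher and 1 lower, Cd163 (median 1.23, 8209 to 9089.6 and 22473 to 27027). Of the defining Kupffer cell genes Vsig4 was called in limma. Clec4f had 0.40 and was not called there, but it was called higher by edgeR (0.47), DESeq2 (0.45) and voom (0.44), under total-read scaling (1.12) and quantile normalization (0.76) and without Vps15LKO replicate 3 (0.62). Timd4 had -0.62 and was not called, but it was called lower by edgeR without a filter (-0.52), under upper-quartile scaling (-0.72) and quantile normalization (-0.97) and, with the filter, without Vps15LKO replicate 1 (-0.88), and it was at 0.10 under total-read scaling.

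None of 6 measured genes of mast cells and basophils was called in limma without a filter, while edgeR called 1, Tpsb2, which limma also called under TMM (1.42) and total-read scaling (1.96), with a pseudocount of 10, without a trend and without Vps15LKO replicate 1 (1.72), and their summed levels were 7.49 to 10.8 and 12.2 to 23.3. Of 10 erythroid genes, a measure of blood in the tissue, 4 were called higher and 2 (Klf1 and Alas2) lower in limma, with a median of 0.46, beside 23.4% and 18.0% of all genes, and edgeR called 6 higher. The globin genes Hbb-bs and Hba-a1 had 0.26 and 0.16 and were not called, but both passed the test under total-read scaling, at 0.98 and 0.88, and under quantile normalization, at 0.72 each. Of 7 genes of megakaryocytes and platelets 3 (Pf4, Itga2b and Gp1bb) were called higher (median 0.78, 73.7 to 82.2 and 208 to 224), against the same 23.4% of all genes, and Itga2b, at 0.03, was not called under quantile normalization. The hepatocyte list went the other way, with 7 of 8 called lower in limma and a median of -1.92, beside 18.0% of all genes, while edgeR called all 8. The exception in limma was Alb, at -1.48, which DESeq2 (-1.46), voom (-1.44) and limma without a trend also called lower. Ttr and Apoa1 were among the 7. Without a filter neither was called under quantile normalization (-0.73 and -0.45) or without Vps15LKO replicate 1, and Apoa1 also not without WT replicate 1 or 2 or Vps15LKO replicate 3 (-1.25 to -1.40) or with a pseudocount of 10.

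**Figure D5:**
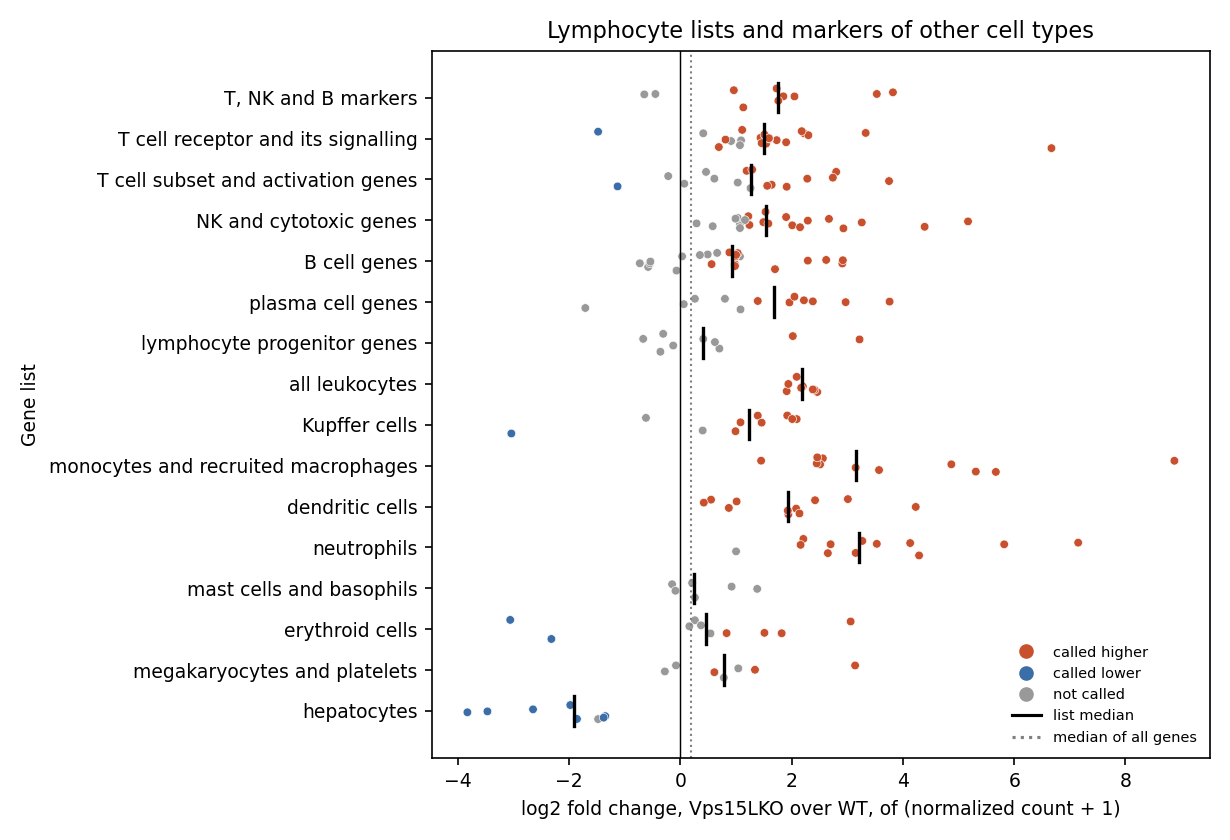
log2 fold change (Vps15LKO over WT, of normalized count + 1) of each measured gene of the lymphocyte lists and of markers of other cell types, from the fit without a filter, coloured by call, with a bar at each list's median and a dotted line at the median of all genes, 0.20. The lymphocyte lists have medians of 0.41 to 1.75, below monocytes at 3.15 and neutrophils at 3.21.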

How the data were processed

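RNA-Seq of 6 mouse livers, 3 WT and 3 Vps15LKO, was analysed from the deposited table, whose columns carry the replicate numbers of the labels. The authors used SOAPnuke to filter the reads, HISAT2 to align them to GRCm38, featureCounts to count and DESeq2 to normalize. Versions and the strand and multi-mapping settings are not given in the sources used here. The deposited values are a signal, the reads of each gene over the size factor of its library, and all values above 0 (100% in each library, within 0.1 read) were whole multiples of 1 read, so whole reads were recovered. Gene symbols and coordinates came from GENCODE release M21 (55227 of 56305 genes matched).

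log2(normalized count + 1) was compared with limma 3.58.1 (trend) run in R 4.3.3, and p-values were adjusted by Benjamini–Hochberg across every gene tested. The fixed main fit required 20 or more normalized counts in 3 or more livers. Fits on all genes with a read, other scalings, edgeR 4.0.16, DESeq2 1.42.0 and voom were alternatives, and the script was tested on simulated data. Counting intervals are exact binomial at 95% and cover counting error only. The labels do not say more of the origin of the 6 samples than 1 liver each, and p-values measure the spread between these livers. The members and gene lists were chosen with earlier results of these data known, and the ratios of reads were added after the values were seen. Named genes are the 10 markers, the 4 most abundant genes of each lymphocyte list, the defining and 2 most abundant markers of other cell types, and Pik3r4. Some genes of these lists are counted but not reported here by name.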

Additional observations from a re-analysis of the deposited data

How the results depend on the processing

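Without a filter, leaving out 1 liver gave 6 to 8 markers called higher and 0 lower, beside 18.7 to 21.9% of all genes called higher. Cd79b lost its call without WT replicate 1 or 2, both it and Cd3d without Vps15LKO replicate 1 or 2, and Cd3d without Vps15LKO replicate 3. The other T and NK genes, 39 of 58 higher, were 27 to 37 (25 under quantile normalization, with 3 lower), and the B and plasma cell genes, 19 of 34, were 7 to 15 (9 under quantile normalization, with 3 lower, beside 19.3% and 21.3% of all genes). In the filtered fits 7 of the 9 markers, 20 of 30 T and NK genes and 12 of 19 B and plasma cell genes would not have entered through WT livers alone, so counts there do not bear on stability. These gave 8 markers higher and 0 lower when any 1 liver was left out (8 to 8 and 0 to 0), 4 and 1 under quantile normalization, and 1 higher (Cd4, the only marker tested) with at least 20 in all 6 livers. The T and NK genes called higher were 24 with the filter (all genes 33.5% higher and 33.0% lower), 39 without it in limma (23.4%) and in edgeR (22.8%, added after seeing the data), and 6 of 10 with the filter in all livers (27.9%), and those called lower, 2, were 4 under quantile normalization (37.6%). The B and plasma cell genes called higher, 18 with the filter, were 9 under quantile normalization (30.4%) and 6 of 6 with the filter in all livers, and 1 was called lower under quantile normalization (Ighd) and 1 without a filter in edgeR (Derl3). Leaving out each liver gave 23 to 25 and 16 to 18 in the filtered fits.

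The log2 fold change changed sign under total-read scaling for Cd79a (0.05), Ms4a1 (0.20), Tox (0.50), Erg (0.59), Dntt (0.35), Timd4 (0.10), Gp9 (0.15), Pik3r4 (0.19), Pax5 (0.10), Ighd (0.16) and Fcer2a (0.11), under quantile normalization for Foxp3 (-0.41), Xcr1 (-0.40) and Klrb1c (-1.03), and under upper-quartile scaling for Foxp3 (-0.02). Across the fits that left out 1 liver it also crossed 0 for Foxp3 (-0.01 to 0.20, below 0 without Vps15LKO replicate 3), Dntt (-0.84 to 0.08, above 0 without Vps15LKO replicate 3 and, at 0.05, without WT replicate 2), Hba-a1 (-0.02 to 0.29, below 0 without Vps15LKO replicate 3), and Ms4a2 (-0.41 to 0.26) and Gp9 (-0.52 to 0.10), both above 0 without WT replicate 3. The cause was not tested. These are the changes of sign among the genes tested under every alternative, which are those of the rule for named genes with Pax5, Ighd, Fcer2a, Fcmr, Ncr1, Klrb1c and Rag1.

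The replicate numbers name different mice, and deviations of same-numbered livers correlated at -0.010, -0.011 and 0.049, so they were not taken to pair the livers. Without a filter, a fit with the replicate block called 8 markers higher and 0 lower, 39 T and NK genes higher and 2 lower, and 19 B and plasma cell genes higher and 1 lower (Derl3), and with the filter it called 8 and 0, 24 and 2, 18 and 0, and 5065 and 4983 genes in all, against 5163 and 5099 without the block. With it and no filter Timd4 was called lower (-0.62) and Xcr1 was not called. Depth limits the CD8 genes in WT livers (2 to 4 reads), Ms4a1 (6 to 12 reads) and Trdc (0 to 2 reads in WT livers), whose fold changes depend on the pseudocount.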
